A study of Mus musculus with 12 samples.

Results

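The activin system in cultured mouse tubular epithelial cells is described here through 9 genes: the activin subunit genes Inhba and Inhbb, the follistatin gene Fst with the follistatin-like genes Fstl1 and Fstl3, and the activin receptor genes Acvr1, Acvr1b, Acvr2a and Acvr2b. They were chosen by symbol, as the rows whose mouse Ensembl identifiers carry these names, and all 9 of them were found among the 55487 genes of the count table. All 9 also passed the filter on low counts. The family was drawn up with an earlier result of these data known, the higher Inhba level of mock cells given TGFβ. Values of that comparison are therefore given below as descriptions, with no p-value for a member, and its counts of calls support nothing. The same mock response is a component of each difference between the responses of the 2 kinds of cells, so those differences are not independent of the choice either.

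The 12 libraries came from im_TEC, conditionally immortalised mouse tubular epithelial cells, in 4 groups of 3. Cells of the mock group carried a mock construct and those labelled Nnmt-OE a construct for expression of Nnmt, the nicotinamide N-methyltransferase gene. Both kinds were kept with or without 10 ng/mL of transforming growth factor β (TGFβ) for 48 h. All groups shared puromycin selection, an SV40 large T antigen, growth at 33 °C with interferon γ at 10 ng/mL, and then 7 days at 37 °C without it. Another label field spells the construct Nmt-OE, and its promoter is not given in the sources used here.

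Activins are dimers of inhibin β subunits. They bind a type II receptor, ACVR2A or ACVR2B, which recruits and activates the type I receptor ACVR1B, and the signal passes through SMAD2 and SMAD3, the same transducers that TGFβ uses. Follistatin and the FSTL3 protein bind activin tightly in the extracellular space and block it, and ACVR1 is a type I receptor used mainly for BMP signals. In the kidney, activin A has been linked to tubular injury and fibrosis.

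Reads assigned to genes numbered 4733846 to 7247413 per library. Levels are counts per 1000000 reads assigned to genes (CPM), with library sizes scaled by the trimmed mean of M values (TMM). Each transcript is read from its 3' end only, so CPM already counts transcripts without regard to their length. Nnmt, which checks the labels, stood at 20.2 ± 3.83 CPM in mock and 25.2 ± 2.87 in labelled Nnmt-OE cells (mean ± SD, n = 3), and at 30.3 ± 2.76 and 27.5 ± 5.79 with TGFβ. A 3' tag counts a construct only if it keeps the 3' end of Nnmt, which the labels do not describe. These levels do not settle whether the construct was expressed, and the groups are called labelled Nnmt-OE. Library codes of the 4 groups do not interleave, so handling and group cannot be told apart. Replicate 1 of mock and replicate 3 of both TGFβ groups stood apart on the first 3 principal components. The tubule markers Pax8, Pax2, Cdh16, Krt8, Lrp2 and Aqp1 each reached at least 52.7 CPM in every library, while the epithelial markers Cdh1 and Epcam had 0 reads in all of them and Slc34a1, a proximal tubule transporter gene, at most 1. Krt18 and Cubn, also on the tubule list, reached no more than 1.94 and 2.37 CPM. Endothelial markers had at most 1 read in a library, for Emcn, and the macrophage marker Adgre1 had none, while Csf1r, on the same list, reached 51.1 to 88.2 CPM. Of the podocyte list, Podxl stood at 68.3 to 88.1 and Synpo at 121 to 166 CPM. Nphs1 and Wt1, on the same list, reached no more than 1.43 and 1.79 CPM. The labels do not say whether the replicates were separate cultures, so p-values measure only the spread between these libraries.

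Promoter windows are shown for 3 members: Inhba and Fstl1, which rose with TGFβ in labelled Nnmt-OE cells, and Fstl3, whose libraries lay on opposite sides of their controls in the 2 kinds of cells. They are the 250 bases before the annotated start, 5' to 3' on the strand of the gene, from RefSeq on GRCm38.p6. RefSeq windows were found for 8 of the 9 members, all but Fst. Capitals mark matches on either strand to CAGAC, the short box that SMAD3 and SMAD4 bind, and to TATAAA.
Inhba, chr13:16011601-16011850, plus strand: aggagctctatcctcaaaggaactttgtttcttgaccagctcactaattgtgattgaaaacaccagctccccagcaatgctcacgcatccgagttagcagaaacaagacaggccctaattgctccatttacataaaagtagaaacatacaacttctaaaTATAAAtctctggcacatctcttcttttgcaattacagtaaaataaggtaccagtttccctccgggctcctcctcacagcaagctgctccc
Fstl1, chr16:37776805-37777054, plus strand: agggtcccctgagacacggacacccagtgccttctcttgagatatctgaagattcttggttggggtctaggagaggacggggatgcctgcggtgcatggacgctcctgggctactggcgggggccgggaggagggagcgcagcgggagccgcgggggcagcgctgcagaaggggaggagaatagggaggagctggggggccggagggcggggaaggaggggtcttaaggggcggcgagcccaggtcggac
Fstl3, chr10:79777024-79777273, plus strand: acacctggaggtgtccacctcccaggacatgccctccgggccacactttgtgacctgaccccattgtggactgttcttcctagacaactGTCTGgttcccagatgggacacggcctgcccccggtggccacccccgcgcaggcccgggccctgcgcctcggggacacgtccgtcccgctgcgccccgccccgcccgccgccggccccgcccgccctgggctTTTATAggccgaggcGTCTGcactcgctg
CAGAC or its reverse complement GTCTG was found in 3 of the 8 members' windows, those of Fstl3, Acvr2a and Acvr2b, against 42.2% of all 32851 windows of this length. Fstl3 held 2 such matches, and the Inhba and Fstl1 windows held none. TATAAA or its reverse complement TTTATA was found in the Inhba window, starting at position -91 from the start site, and in the Fstl3 window at position -29. It occurs in 12.4% of windows. The AP-1 motif TGANTCA (6.75% of windows) and the cyclic AMP response element TGACGTCA (1.55%) were found in 0 of the 8. A TGANTCA match can share letters with a CAGAC match, but with no TGANTCA match in these windows none did. With 43.2% G and C, the Inhba window lay below the median of all windows (52.4%), while Fstl1 had 68.0% and Fstl3 71.2%.

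The transcript for the antagonist was far more abundant than those for the ligand or the receptors. In untreated mock cells Fst stood at 1507 ± 369 CPM (SD, n = 3), which ranked 29 of all 55487 genes, and Fstl1, which encodes a secreted glycoprotein, at 507 ± 42.2 CPM, rank 197. Inhba followed at 66.9 ± 4.62 and Inhbb at 39.9 ± 4.15 CPM. The receptor genes were low: Acvr1 stood at 20.1 ± 3.43, Acvr2a at 16.8 ± 0.958, Acvr1b at 9.20 ± 2.82 and Acvr2b at 5.74 ± 1.94 CPM. Fstl3 was lowest, at 1.23 ± 0.952 CPM. The order of the means was the same in all 4 groups. Acvr1 and Acvr2a overlapped in every group, and Acvr1b and Acvr2b in all but untreated labelled Nnmt-OE. Inhbb and Acvr1 overlapped in mock with TGFβ alone, and the neighbouring ranges of Fst, Fstl1, Inhba and Inhbb overlapped in none of the 4 groups.

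**Figure D1:**
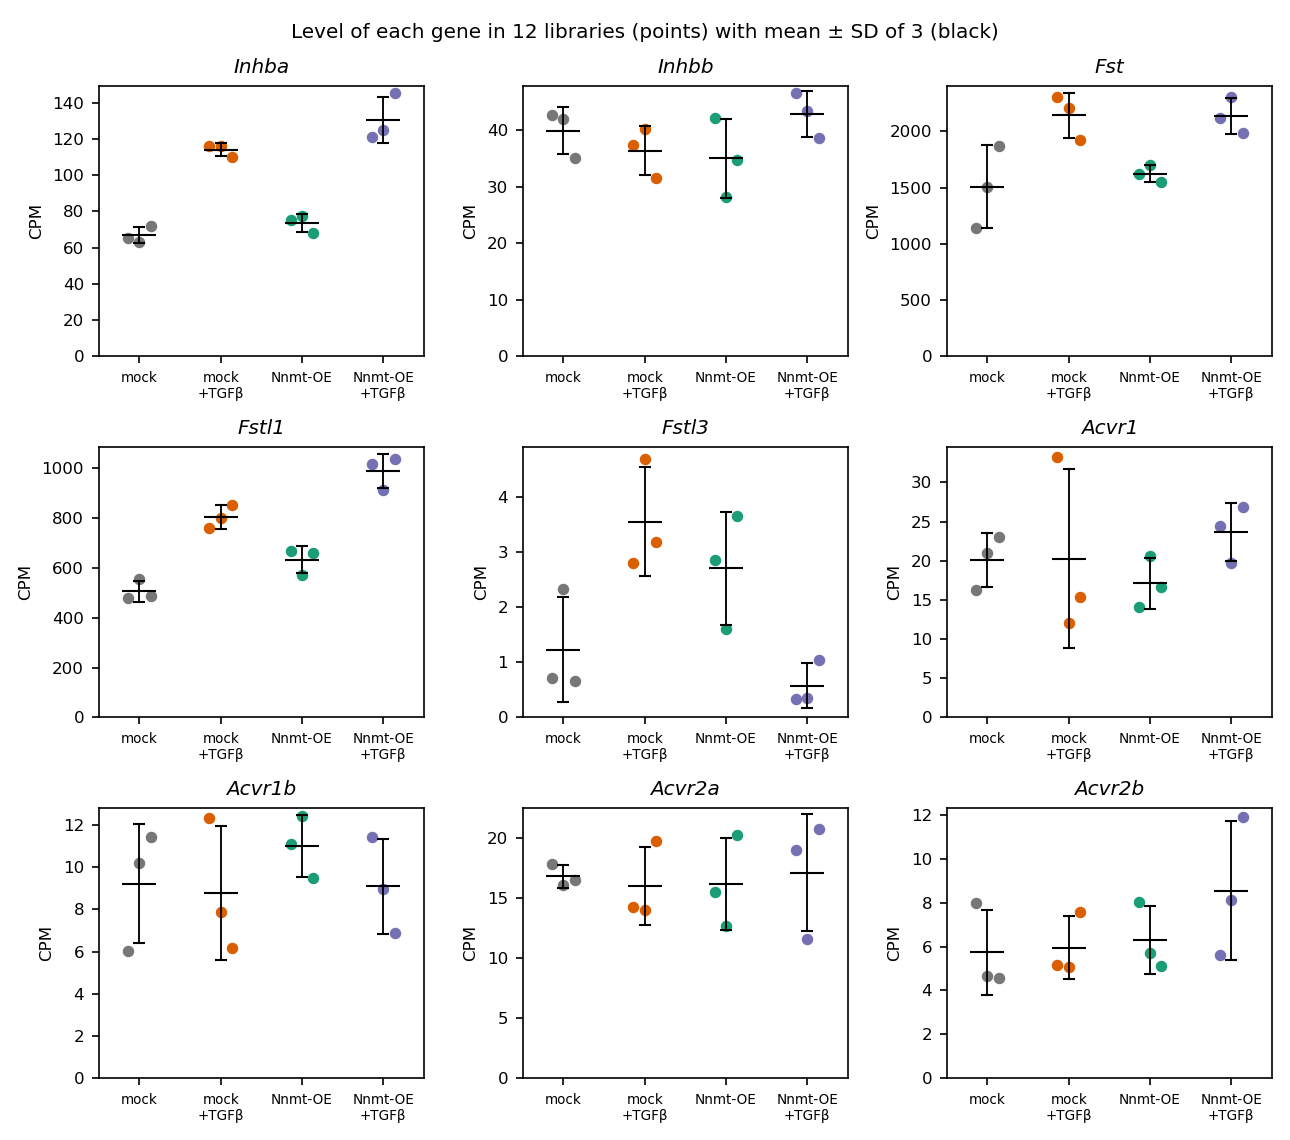
Level of the 9 genes in CPM (y axes, from 0, on a scale of their own) in each library (points) of the 4 groups (x axes), with the mean ± SD of 3 in black. Inhba and Fstl1 lie higher in the libraries with TGFβ in both kinds of cells, and Fstl3 is high in mock with TGFβ and low in Nnmt-OE with TGFβ.

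The first question was how TGFβ, which signals through the same SMADs, moved the genes for activin subunits. In labelled Nnmt-OE cells Inhba rose and Inhbb was not called. Inhba, whose product pairs into activin A, stood at 65.3, 63.3 and 72.1 CPM in mock cells and at 116, 116 and 110 CPM in mock cells with TGFβ. All treated libraries lay above all untreated ones. The fold was 1.70 (log2 0.77 ± 0.12 SE). Libraries of labelled Nnmt-OE are not in the groups of the mock comparison, but the same fit gave both comparisons their estimate of spread. In labelled Nnmt-OE cells Inhba stood at 75.4, 77.5 and 68.1 CPM without and 121, 125 and 145 CPM with TGFβ. Again no treated library reached down to the untreated ones. Inhba rose 1.76-fold there (log2 0.82 ± 0.12 SE, 95% interval 1.49 to 2.09-fold, edgeR quasi-likelihood test, adjusted p = 2.01e-05). When the 3 libraries that stand apart were left out, the log2 value was 0.74 (edgeR adjusted p = 5.16e-05). The difference between the TGFβ responses of Inhba in labelled Nnmt-OE and mock was 0.05 ± 0.17 on the log2 scale (95% interval -0.29 to 0.39), a description since the mock response of Inhba was known. In such bulk samples a change in the share of cells that make a transcript and a change in its amount per cell cannot be told apart.

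Inhbb, whose product forms activin B, did not pass in labelled Nnmt-OE. It stood at 42.6, 41.9 and 35.1 CPM in mock and 37.3, 40.2 and 31.6 CPM in mock with TGFβ. In labelled Nnmt-OE it stood at 42.1, 28.1 and 34.7 CPM, and with TGFβ at 46.5, 43.4 and 38.5 CPM. The groups overlapped in both kinds of cells. The log2 values for TGFβ were -0.13 ± 0.18 in mock and 0.30 ± 0.18 in labelled Nnmt-OE (95% interval -0.07 to 0.66, edgeR adjusted p = 0.584). The number of Inhba tags for each Inhbb tag in a library was 1.53, 1.51 and 2.06 in mock and 3.09, 2.88 and 3.50 in mock with TGFβ, without overlap. In labelled Nnmt-OE it was 1.79, 2.76 and 1.96, and 2.60, 2.88 and 3.76 with TGFβ, where the ranges overlapped. The α subunit gene Inha and the other β subunit genes Inhbc and Inhbe had 0 reads in all 12 libraries.

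Of the follistatin genes, Fstl1 was the one also called higher with TGFβ in labelled Nnmt-OE. It encodes a follistatin-like protein of the SPARC family and, unlike FST and FSTL3, is not a tight activin binder. It stood at 479, 555 and 486 CPM in mock, and at 761, 801 and 854 CPM with TGFβ, with no overlap. The fold was 1.59 (log2 0.67 ± 0.08 SE). In labelled Nnmt-OE it stood at 668, 572 and 662 CPM without TGFβ and 1017, 914 and 1039 CPM with it. Fstl1 rose 1.56-fold there (log2 0.64 ± 0.08 SE, 95% interval 1.39 to 1.76-fold, edgeR adjusted p = 2.26e-06). The groups did not overlap in this comparison either. The responses in labelled Nnmt-OE and mock differed by -0.03 ± 0.12 on the log2 scale (95% interval -0.27 to 0.22).

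Fst, the main extracellular trap for activin, was higher in all treated libraries without passing the test. It stood at 1138, 1508 and 1875 CPM in mock replicates 1 to 3, the widest spread of any group for this gene (coefficient of variation 24.4%), and at 2306, 2207 and 1922 CPM with TGFβ. In labelled Nnmt-OE it stood at 1626, 1698 and 1552 CPM, and with TGFβ at 2122, 2310 and 1989 CPM. Neither pair of groups overlapped. The log2 values were 0.51 ± 0.14 in mock and 0.40 ± 0.14 in labelled Nnmt-OE (95% interval 1.07 to 1.62-fold, edgeR adjusted p = 0.266). The call in labelled Nnmt-OE differed between settings, and the cause was not tested. Fst passed there without mock replicate 1 (edgeR adjusted p = 0.00127), without mock replicate 3 (0.00775), without the 3 libraries that stand apart (1.50e-05), in the fit of these 2 groups alone (2.41e-05), without the filter (2.29e-04) and in DESeq2 (0.0433). Over all 21 alternatives the adjusted p ran from 1.50e-05 to 0.495, with log2 values from 0.34 to 0.45. The difference between the responses of Fst was -0.11 ± 0.20 (95% interval -0.54 to 0.32).

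Setting the trap against the ligand, a library held 17.4, 23.8 and 26.0 Fst tags for each Inhba tag in mock and 20.0, 19.1 and 17.4 in mock with TGFβ. In labelled Nnmt-OE the ratio was 21.6, 21.9 and 22.8, and with TGFβ it was 17.5, 18.5 and 13.7. Every library thus held at least 13.7 Fst tags for each Inhba tag. With TGFβ the ratio was lower in all 3 libraries of labelled Nnmt-OE, while in mock the ranges overlapped. These ratios are descriptions and were not tested.

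**Figure D2:**
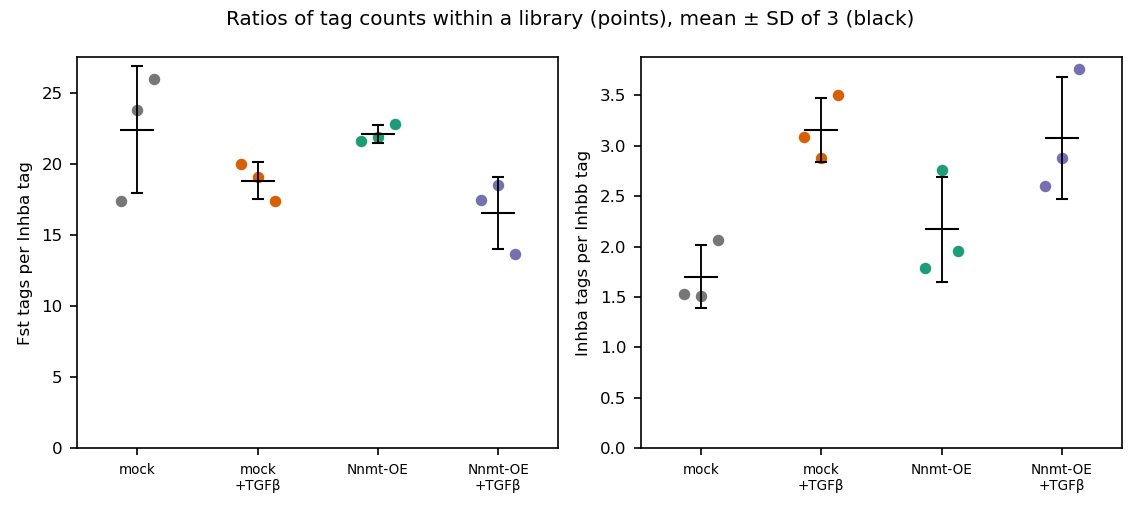
Ratio of tag counts within each library (points, mean ± SD of 3 in black): Fst tags per Inhba tag (left) and Inhba tags per Inhbb tag (right), both axes from 0. The Fst ratio lies between 13.7 and 26.0 in all libraries, and the Inhba to Inhbb ratio is 3.16 ± 0.313 in mock with TGFβ against 1.70 ± 0.309 in mock.

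Fstl3, which encodes a secreted activin antagonist close to follistatin, was measured with few reads. Mock replicates held 4, 11 and 4 reads and mock with TGFβ 20, 34 and 18 reads, which are 0.709, 2.33 and 0.653 CPM against 2.80, 4.68 and 3.18 CPM. Labelled Nnmt-OE held 16, 11 and 20 reads and, with TGFβ, 2, 2 and 5 reads, which are 2.85, 1.61 and 3.65 CPM against 0.330, 0.346 and 1.04 CPM. With TGFβ every mock library was thus higher and every labelled Nnmt-OE library lower than its untreated counterparts. Summed over 3 libraries, the levels were 1.15 CPM in mock (exact Poisson 95% interval 0.691 to 1.79), 3.58 in mock with TGFβ (2.80 to 4.51), 2.65 in labelled Nnmt-OE (1.95 to 3.52) and 0.539 with TGFβ (0.246 to 1.02). These intervals cover counting error only.

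The test did not call Fstl3 in labelled Nnmt-OE cells, where its log2 value for TGFβ was -2.24 ± 0.91 (edgeR adjusted p = 0.290). In mock the value was 1.55 ± 0.83. The difference between these responses was -3.78 ± 1.23 (95% interval -6.27 to -1.30, edgeR unadjusted p = 0.00374, adjusted p = 0.999). Such a reversal without overlap in either kind of cell was seen in 0.333% of the 12897 genes tested, 43 in number. Fstl3 was singled out because it showed this pattern, so the share and the unadjusted p describe it and test nothing. Across 20 alternatives the difference ran from -4.59 to -3.47, with adjusted p from 0.885 up. Prss57, which overlaps the 3' end of Fstl3 on the opposite strand in GENCODE M21, had 0 reads in all 12 libraries. The sources used here do not say whether counting used strand. Without strand, reads from such a pair of genes cannot be told apart.

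**Figure D3:**
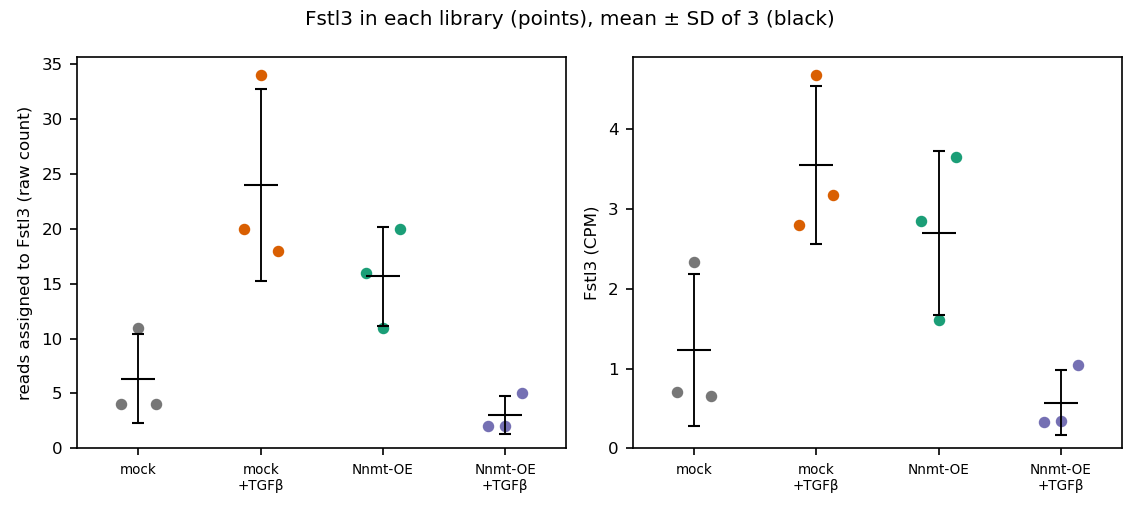
Fstl3 in each library (points, mean ± SD of 3 in black), as raw counts of reads (left) and as CPM (right), both axes from 0. Mock with TGFβ holds 18 to 34 reads a library and Nnmt-OE with TGFβ 2 to 5.

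The receptor genes gave no call for TGFβ in labelled Nnmt-OE. Acvr1b, the main type I receptor for activin, stood at 6.03 to 11.4 CPM in mock and 6.18 to 12.3 CPM with TGFβ. In labelled Nnmt-OE it stood at 9.49 to 12.4 and 6.87 to 11.4 CPM, with a log2 value of -0.27 ± 0.35 (95% interval -0.98 to 0.44, edgeR adjusted p = 0.854). Of the type II receptors, Acvr2a ranged from 11.6 to 20.8 CPM over all libraries and its TGFβ values were -0.08 ± 0.27 in mock and 0.08 ± 0.27 in labelled Nnmt-OE (-0.46 to 0.63, edgeR adjusted p = 0.955). Acvr2b ranged from 4.57 to 11.9 CPM, with 0.05 ± 0.43 and 0.43 ± 0.42 (-0.42 to 1.28, edgeR adjusted p = 0.793). In labelled Nnmt-OE the interval of Acvr2b reaches past the 0.82 of Inhba, while those of Acvr1b and Acvr2a end below it.

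Acvr1, in mock with TGFβ, had the widest spread of the 4 receptor genes in any group (coefficient of variation 56.7%). That group held 33.3, 12.0 and 15.4 CPM in replicates 1 to 3, against 16.3, 21.0 and 23.0 CPM in mock. The value in mock was 0.01 ± 0.28 with all libraries and -0.56 without mock with TGFβ replicate 1. In labelled Nnmt-OE Acvr1 stood at 14.1, 20.6 and 16.6 CPM and with TGFβ at 24.4, 19.7 and 26.9 CPM, overlapping, with a log2 value of 0.46 ± 0.28 (95% interval -0.11 to 1.03, edgeR adjusted p = 0.586). The 3' end of Acvr2a overlaps Orc4 on the opposite strand, and Orc4 averaged 30.8 to 38.0 CPM in the 4 groups, so the Acvr2a level is uncertain where strand was not used. The 3' end of Inhba overlaps Gm48444, which had 0 reads in all 12 libraries.

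Counted together, 2 of the 9 members, Inhba and Fstl1, were called for TGFβ in labelled Nnmt-OE, both higher, where 1.40% of all genes tested were called. The median log2 value was 0.40 over the members and 0.0 over all genes tested. An unadjusted p under 0.05 was found for 4 members, Inhba, Fst, Fstl1 and Fstl3, and 11.1% of all genes. Groups of the same 4 members did not overlap, as was seen for 17.6% of genes. In mock the count was also 2, against 1.43% of genes, with a median of 0.05, and groups did not overlap for 4 members, against 16.4% of genes. That comparison was in view when the members were chosen, so nothing is read from its count. Labelled Nnmt-OE cells are of the same line and were given the same TGFβ, so their count is not independent of that choice either. The interaction called 0 of 9 members by edgeR, DESeq2 and limma-voom and 0% of all genes by edgeR. 1 member, Fstl3, had an unadjusted p under 0.05, as did 3.89% of genes.

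Fibroblast and tubule marker sums differed between cells with and without TGFβ, without overlap. The summed level of the 8 fibroblast markers was 3.37 to 6.53 CPM in mock and 7.94 to 13.7 with TGFβ, and 1.61 to 8.03 and 10.7 to 16.1 CPM in labelled Nnmt-OE. Of these markers Col3a1, Lum and Thy1 were at 0 in every library and 5 of the 8 stayed under 10 reads. Most of the fibroblast sum came from Col1a1, at 1.03 to 13.5 CPM, and Col1a2, at up to 6.01 CPM. The summed level of 11 tubule markers was 1636 to 1944 CPM in mock and 1441 to 1478 with TGFβ, and 1962 to 1991 and 1481 to 1619 CPM in labelled Nnmt-OE. Aqp1 had the highest level of these markers, at 598 to 1140 CPM, so the sum does not give the direction of each. Krt8 averaged higher with TGFβ, at 82.1 against 60.1 CPM in mock and 85.2 against 69.0 CPM in labelled Nnmt-OE. The macrophage sum overlapped, at 71.8 to 100.0 and 85.9 to 116 CPM in mock and 86.7 to 99.5 and 93.5 to 105 CPM in labelled Nnmt-OE. So did the podocyte sum, mostly Podxl and Synpo, at 203 to 215 and 204 to 239 CPM in mock. In labelled Nnmt-OE it was 205 to 244 and 212 to 240 CPM. The part of any of these in the values of Inhba, Fst and Fstl1 was not tested.

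**Figure D4:**
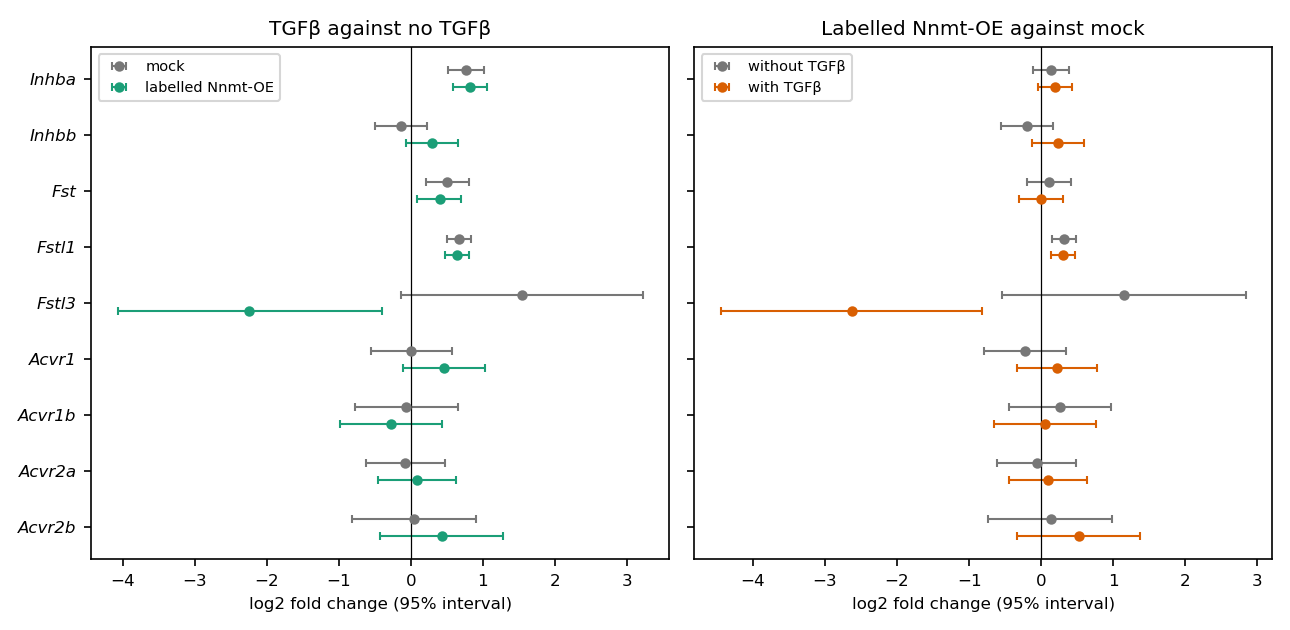
Log2 fold changes of the 9 members with 95% intervals of the edgeR model (x axes), for TGFβ against none in mock and labelled Nnmt-OE (left) and for the construct against mock in untreated and in TGFβ-treated cells (right). Inhba and Fstl1 lie above 0 in both TGFβ comparisons at 0.64 to 0.82, and the Fstl3 intervals are the widest.

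The next comparison asked what the Nnmt construct changed. It called 0 of the 9 members without TGFβ, by edgeR, DESeq2 and limma-voom, where edgeR called 0.0388% of all genes. At an unadjusted p under 0.05 it named 1 member, Fstl1, against 5.84% of genes. Fstl1 was 1.25-fold higher in labelled Nnmt-OE (log2 0.32 ± 0.08 SE, 95% interval 1.11 to 1.41-fold, edgeR adjusted p = 0.459). Inhba was 1.10-fold higher (95% interval 0.928 to 1.31-fold, edgeR adjusted p = 0.946) and Fst 1.08-fold higher (0.874 to 1.33-fold, 0.974), both with overlap. Fstl3 was 2.22-fold higher with overlap (log2 1.15 ± 0.84, edgeR adjusted p = 0.916). The 3 labelled Nnmt-OE values of Fstl1, from 572 CPM, lay above the 3 mock values, up to 555 CPM, and no overlap in either direction was seen in 10.9% of genes.

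Among cells given TGFβ, the construct again called 0 of 9 members by the same 3 tools, where edgeR called 0.0233% of genes. Fstl1 was 1.23-fold higher (log2 0.30 ± 0.08 SE, 95% interval 1.09 to 1.38-fold, edgeR adjusted p = 0.705), with all labelled Nnmt-OE libraries above all mock libraries. Fstl3 was lower, at -2.63 ± 0.90 on the log2 scale (edgeR adjusted p = 0.897). Fstl1 and Fstl3 were the 2 members with an unadjusted p under 0.05, against 4.47% of genes. Inhba was 1.14-fold higher (95% interval 0.968 to 1.34-fold, edgeR adjusted p = 0.998) without overlap, and Fst was equal within its interval, at 0.998-fold (0.809 to 1.23-fold, edgeR adjusted p = 0.999). No overlap was seen for 3 members and 10.2% of genes. For the receptor genes and Inhbb the log2 values of the construct ran from -0.23 to 0.26 without and 0.05 to 0.52 with TGFβ, and all groups overlapped.

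Other genes of the activin pathway were read from a list of 58, of which 29 were tested. In labelled Nnmt-OE cells TGFβ changed 2 of the 29, 1 higher and 1 lower, against 1.40% of all genes, with a median log2 value of -0.05. In mock 1 was called, higher, against 1.43% of genes. The construct called 0 of the 29 by edgeR without TGFβ and 0 with it, against 0.0388% and 0.0233% of genes. Among transducers and feedback genes, Pmepa1, a TGFβ target gene whose product restrains SMAD signalling, stood at 139, 148 and 158 CPM in labelled Nnmt-OE and at 280, 304 and 269 CPM with TGFβ. It rose 1.92-fold (edgeR adjusted p = 2.00e-08), with no overlap. Its fold in mock was 2.01, from 133, 131 and 118 to 237, 253 and 276 CPM. Smad3, which carries activin and TGFβ signals to the nucleus, stood at 146, 163 and 163 CPM and at 118, 108 and 121 CPM with TGFβ. It fell by 0.44 on the log2 scale (edgeR adjusted p = 0.0426), a call that ended in 10 of 21 alternatives. Its adjusted p ran from 0.00698 to 0.220 over them, and it was lost without any 1 replicate of labelled Nnmt-OE or of labelled Nnmt-OE with TGFβ, without mock replicate 2, without mock with TGFβ replicate 1 or 2, and with the replicate block. Smad7, an inhibitory SMAD, stood at 0.21 (edgeR adjusted p = 0.793) and Fkbp1a, whose product binds type I receptors, at 0.17 (0.506).

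The rest of the list gave values without a call in the fit of all 12 libraries. Of the receptor genes, Tgfbr3, which encodes the co-receptor betaglycan, stood at -0.83 ± 0.23 with TGFβ in labelled Nnmt-OE (edgeR adjusted p = 0.0544) and at -0.53 ± 0.23 in mock. Its TGFβ value in labelled Nnmt-OE was called in 7 of the 21 alternatives, with adjusted p from 0.0130 to 0.332 and log2 values from -1.05 to -0.66. Tgfbr1 stood at -0.63 (edgeR adjusted p = 0.313) and Tgfbr2 at -0.14 (0.662). The type I receptor gene Acvr1c and the co-receptor gene Tdgf1 had 0 reads. Of ligand genes, Gdf11, which uses the same type II receptors as activin, stood at -0.21, Gdf15 at -0.08, Bmp6 at 0.05 and Bmp7 at -0.37. Of genes for convertases that cleave precursors of this family, Furin stood at 0.12 and Pcsk7 at -0.20. Of antagonist and follistatin-like genes, Sparc stood at -0.03, Nog at -0.25 and Wfikkn1 at -1.10 ± 1.14.

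**Figure D5:**
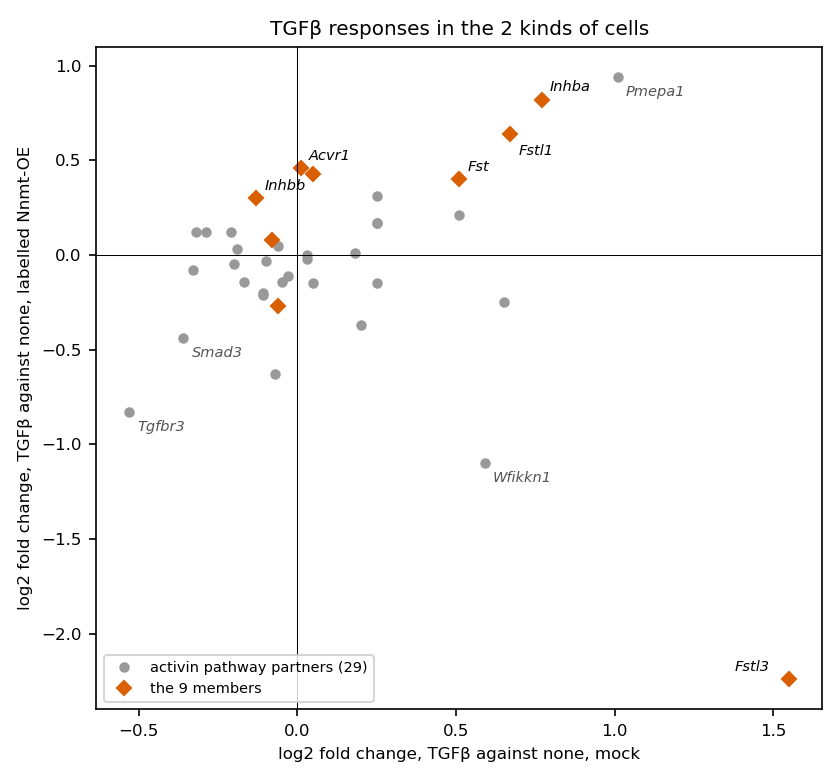
Log2 fold change for TGFβ against none in mock (x axis) and in labelled Nnmt-OE (y axis) for the 9 members (diamonds) and the 29 tested genes of the pathway list (circles). Inhba, Fstl1 and Fst lie in the upper right with Pmepa1, and Fstl3 lies farthest to the lower right at 1.55 and -2.24.

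Genes with the most similar profile were found by the root mean square difference in log2 CPM over the 12 libraries, each gene centred on its own mean, among 9121 other genes of at least 10 CPM. Closest to Inhba were Gadd45g (difference 0.123), a stress sensor gene, Megf6 (0.136), Actn1 (0.141), which encodes an actin crosslinker, Pkdcc (0.152) and Ccn4 (0.161), a matricellular gene. Closest to Fstl1 were Pdgfb (0.081), a growth factor gene, Actn1 (0.113), Fhl2 (0.127), Megf6 (0.135) and Cotl1 (0.138). Actn1 and Megf6 were on both lists. Closest to Fst were Txn1 (0.10), which encodes thioredoxin, Krt8 (0.127), Cdca4 (0.128), Epb41l2 (0.132) and Npm1 (0.132). These are descriptions of likeness across the same libraries and were not tested.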

How the data were processed

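RNA of the 12 libraries was sequenced as tags from the 3' end of transcripts with QuantSeq 3' mRNA-Seq FWD V2, per the labels. Values are raw counts of reads per gene, deposited by the authors; the submitters' processing notes name STAR, HTSeq and GRCh38, although the identifiers are those of mouse genes. For the counter's strand option and the versions, nothing is given in the sources used here. Rows that name no gene, of which reads without a feature made 26.4 to 28.79% of a library, were left out. Identifiers were paired with symbols for 55141 of 55487 (99.4%), and 213 that share a symbol were named by identifier. GENCODE M21 gave overlaps between genes.

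Counts of the 12 libraries entered 1 edgeR 4.0.16 quasi-likelihood fit with robust dispersion (R 4.3.3, limma 3.58.1), after filterByExpr with a minimum count of 10 and total of 15 (12897 genes tested, 42590 removed) and TMM scaling (factors 0.982 to 1.012). P-values were adjusted over all tested genes by Benjamini-Hochberg, and called means an adjusted p under 0.05. The fit was tested on simulated data. Alternatives were RLE scaling, library totals, no filter, a stricter filter (1 CPM in 3 libraries and a total of 50), a replicate block, the compared groups alone, each replicate left out, DESeq2 1.42.0 and limma-voom; after seeing the data, a fit without the 3 libraries apart from the rest on the principal components was added.

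The members, the pathway list and the marker lists were chosen with earlier results of these data known. Named genes were the 9 members, Nnmt, pathway genes called or among the 4 per role with the smallest adjusted p over both TGFβ comparisons, and the 5 genes closest in profile to each member of at least 10 CPM whose group means span 0.5 or more on the log2 scale. Some markers of the lists are not reported here and were left out of the sums.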

Additional observations from a re-analysis of the deposited data

Results flagged for a closer look

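The TGFβ response of Fstl3 in labelled Nnmt-OE minus that in mock was -3.78 ± 1.23 on the log2 scale. It stands here because all 3 mock libraries with TGFβ lay above the untreated ones and all 3 labelled Nnmt-OE libraries with TGFβ lay below theirs. The edgeR test of the difference gave an unadjusted p of 0.00374 and an adjusted p of 0.999. The 4 groups rest on 19, 72, 47 and 9 reads in all, in the order mock, mock with TGFβ, labelled Nnmt-OE and labelled Nnmt-OE with TGFβ. The mock response in this difference belongs to the comparison known when the family was chosen. As Fstl3 was picked out for this pattern, the unadjusted p is a description.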

How the results depend on the processing

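Inhba and Fstl1 were called higher with TGFβ in labelled Nnmt-OE in all 21 alternatives, with edgeR, DESeq2 or limma-voom adjusted p of at most 0.00108 and 2.00e-04. The number of members called stayed at 0 for the construct and the interaction and ran from 2 to 3 for TGFβ in labelled Nnmt-OE, where Fst was the addition. Of the log2 values of members, 912 were classed as unchanged, 13 as moved and 11 as passing the threshold in addition. Those that moved include the TGFβ value of Fstl3 in labelled Nnmt-OE, not called in either fit. It was -2.91 without labelled Nnmt-OE with TGFβ replicate 3, against -2.24 with all libraries. Depth limits Fstl3, with 2 to 34 reads a library.

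Over all genes, the construct without TGFβ called 5, against 13 without the filter, 3 in the compared groups alone and 3 to 6 without 1 replicate. With TGFβ it called 3, and 1 to 3 without 1 replicate. TGFβ in mock called 184, against 92 in the compared groups alone, 306 in DESeq2 and 96 to 189 without 1 replicate. In labelled Nnmt-OE it called 180, against 338, 295 and 93 to 302 in the same settings. Pathway genes called numbered 1 to 2 in mock and 1 to 3 in labelled Nnmt-OE without 1 replicate. The cause was not tested.

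With the replicate block, 4, 3, 170, 168 and 0 genes were called (construct without TGFβ, construct with TGFβ, TGFβ in mock, TGFβ in labelled Nnmt-OE, interaction), and 1 pathway gene with TGFβ in labelled Nnmt-OE. Members called with the block were 0, 0, 2, 2 and 0, and Smad3 was the pathway gene whose call ended. No sign of pairing by number was seen: 18 correlations of same-numbered libraries ran from -0.102 to 0.047, and 13 of 36 best matches had their own number. These values do not settle whether same-numbered libraries were handled together.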

Other observations

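Gm47040, which in GENCODE M21 overlaps Fst on the opposite strand without covering its 3' end, was noticed after its values were seen. It had 0 reads in the 6 mock libraries, 8, 3 and 8 reads in labelled Nnmt-OE, and 0, 3 and 0 in labelled Nnmt-OE with TGFβ. No test was made.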
